A study of Mus musculus with 12 samples.

Results

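The genes of CTCF, of the cohesin ring with its loader and its release factor, and of the chromatin remodellers of the BAF and CHD families were followed in open-chromatin maps of mouse embryonic stem cells. The 10 genes were Ctcf, Rad21, Smc3, Nipbl, Wapl, Smarca4, Smarcc1, Arid1a, Chd1 and Chd4, of 21887 protein-coding genes on chromosomes 1 to 19, X and Y. For each gene, ATAC-seq peaks were taken from all 12 deposited lists where they overlapped the annotated gene span extended by 5 kb on each side, and overlapping peaks were merged over libraries. This gave 48 merged regions of 97889 in the genome. The cells were a BL6xCAST line, a hybrid of mouse strains, and all carried a synthetic construct on chromosome X. In 6 libraries it was synHPRT1, with the sequence of the human purine salvage gene HPRT1, and in the other 6 it was synHPRT1R, its reversed counterpart. Each genotype had 2 clones with 3 replicates each, grown on gelatin in a medium with 80% 2i medium and LIF, and 50000 cells were tagmented per library. No library of cells without a construct was used here, a clone may differ from its parent line in more than the construct, and 0 of the 10 genes lie on chromosome X. Whether replicates were separate cultures is not stated in the labels. The p-values therefore reflect variation among these libraries, and that variation may be technical.

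CTCF is a zinc-finger protein that binds DNA at insulators and domain borders and stops loop extrusion by cohesin. Cohesin is a ring that holds SMC3 and the kleisin RAD21. It is loaded onto chromatin by NIPBL and removed by WAPL, and together these proteins fold chromosomes into loops and hold sister chromatids together. SMARCA4 (BRG1) is the ATPase, SMARCC1 (BAF155) a scaffold and ARID1A a DNA-binding subunit of the BAF remodelling complex of embryonic stem cells. CHD1 is a remodeller that recognises methylated histone H3 lysine 4 at active promoters, and CHD4 is the ATPase of the NuRD complex. All of them act in nearly every cell type, and several are needed to keep embryonic stem cells pluripotent.

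Promoter sequences are shown for 6 genes because the open regions at their starts span the range from the strongest to the weakest among these genes. They are RefSeq sequences of GRCm38.p6, each with 250 bases before the annotated start and 30 bases from the start on, written 5′ to 3′ along the gene. Capitals mark matches on either strand to the GC box GGGCGG, the NFY box CCAAT or the ETS letters CCGGAAG, and, in Ctcf and Smc3, a run of 16 bases that both share. Ctcf lies at chr8:105636288-105636567 on the plus strand, Smc3 at chr19:53600146-53600425 (plus), Wapl at chr14:34673678-34673957 (plus), Smarcc1 at chr9:110131774-110132053 (plus), Arid1a at chr4:133756740-133757019 (minus) and Chd4 at chr6:125095913-125096192 (plus).
Ctcf: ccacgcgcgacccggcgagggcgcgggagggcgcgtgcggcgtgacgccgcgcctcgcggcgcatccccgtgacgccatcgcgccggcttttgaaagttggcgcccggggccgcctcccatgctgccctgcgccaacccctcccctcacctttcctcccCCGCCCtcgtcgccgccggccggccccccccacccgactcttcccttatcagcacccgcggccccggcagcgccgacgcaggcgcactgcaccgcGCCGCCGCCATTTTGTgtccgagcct
Smc3: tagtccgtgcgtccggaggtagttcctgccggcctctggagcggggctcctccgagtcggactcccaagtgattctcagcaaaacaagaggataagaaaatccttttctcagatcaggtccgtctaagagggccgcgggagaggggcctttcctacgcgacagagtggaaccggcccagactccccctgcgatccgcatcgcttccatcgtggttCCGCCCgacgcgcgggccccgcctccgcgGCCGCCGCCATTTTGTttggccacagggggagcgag
Wapl: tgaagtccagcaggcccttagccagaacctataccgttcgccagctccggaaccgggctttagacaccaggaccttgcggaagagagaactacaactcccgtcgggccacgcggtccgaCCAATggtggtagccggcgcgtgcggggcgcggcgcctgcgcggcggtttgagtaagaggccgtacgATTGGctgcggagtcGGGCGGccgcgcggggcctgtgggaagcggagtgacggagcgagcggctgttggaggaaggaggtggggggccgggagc
Smarcc1: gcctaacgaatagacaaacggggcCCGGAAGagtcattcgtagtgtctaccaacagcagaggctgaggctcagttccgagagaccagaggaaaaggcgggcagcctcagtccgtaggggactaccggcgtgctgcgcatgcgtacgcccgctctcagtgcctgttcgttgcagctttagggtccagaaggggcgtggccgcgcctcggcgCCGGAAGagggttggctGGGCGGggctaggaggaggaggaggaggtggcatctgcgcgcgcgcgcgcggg
Arid1a: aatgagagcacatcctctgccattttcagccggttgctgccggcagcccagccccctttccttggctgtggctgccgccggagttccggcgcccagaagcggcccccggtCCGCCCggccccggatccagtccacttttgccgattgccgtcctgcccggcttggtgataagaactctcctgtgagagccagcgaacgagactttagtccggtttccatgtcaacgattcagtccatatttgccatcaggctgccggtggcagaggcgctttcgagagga
Chd4: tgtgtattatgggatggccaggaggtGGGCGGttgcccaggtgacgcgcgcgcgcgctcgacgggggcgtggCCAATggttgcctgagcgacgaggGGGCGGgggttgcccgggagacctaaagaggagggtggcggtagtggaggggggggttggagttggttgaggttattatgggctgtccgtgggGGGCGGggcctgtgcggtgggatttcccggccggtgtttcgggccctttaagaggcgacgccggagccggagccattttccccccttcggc

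The promoter table held 9 entries for 7 of the 10 genes, with 2 starts each for Arid1a and Chd4. Rad21, Nipbl and Chd1 had no entry. The shared run of Ctcf and Smc3, gccgccgccattttgt, occurred on the gene's strand in 2 of all 32851 promoter entries, those of these 2 genes. Since the run was selected as the longest one shared, its low count is a description and not a test. The run began at position 4 of Ctcf and position -6 of Smc3, counted from 0 at the annotated start. It was the longest run shared between the entries of different genes among the 34 pairs of entries compared, the next longest being 13 bases of alternating C and G in Smarcc1 and Chd4. The run contains the letters AANATGGCG on the other strand, a wider form of the YY1 letters that was added after the sequences had been read and is held by 2.38% of all promoters. The planned YY1 letters AAGATGGCG matched none of the 9 entries and 1.40% of all promoters.

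GC boxes were present in all 9 entries and in 35.7% of all promoters of the same length. The entries had 57.0% to 79.7% G and C, against a median of 52.7% over all promoters. The share over all promoters was not matched for base composition. CCAAT was found at Wapl, where it occurs on both strands, and at Chd4, against 37.4% of all promoters. The ETS letters occurred at Smarcc1, at positions -226 and -40 from the start, and in 8.86% of all promoters. None of the 9 entries held the CTCF core motif (0.0365% of promoters), the NRF1 motif (0.971%), the ZBTB33 motif (0.466%), the cyclic AMP response element TGACGTCA (1.79%) or the TATA box TATAAA (13.6%). For CTCF, NRF1 and ZBTB33, motif here means only the letters chosen for the search, and close variants were not counted. An entry without a match may therefore hold a variant of these motifs. With 0.0365% of all promoters holding the CTCF letters, a lack of matches in 9 entries says little about CTCF. The searches ran on both strands, and a match is a run of letters, not a bound site. CpG dinucleotides numbered from 17 at the first listed start of Chd4 to 47 at Ctcf within 300 bases, and the median of all promoters was 7. Ctcf held more CpG than 98.6% of all promoters.

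Open chromatin was listed at all 10 genes, and each gene had at least 1 region in all 12 libraries, as did 60.9% of all protein-coding genes. Of the 48 regions, 18 were listed in all 12 libraries (37.5%), 11 in 6 to 11, 9 in 2 to 5 and 10 in a single library. The share listed in all 12 was 26.7% over the 61454 regions at protein-coding genes. Since the genes were chosen, these shares are a description. Nipbl, with a span of 175492 bp, had 8 regions, Arid1a 6, and Smc3, Wapl, Smarcc1 and Chd1 5 each. Ctcf and Chd4 had 4, and Rad21 and Smarca4 had 3. Genes of like span had a median of 7 regions for Nipbl, 4 for Arid1a and 3 for Smc3. For Smarca4 that median was 4 regions, and 76.4% of such genes had at least as many as its 3.

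**Figure D1:**
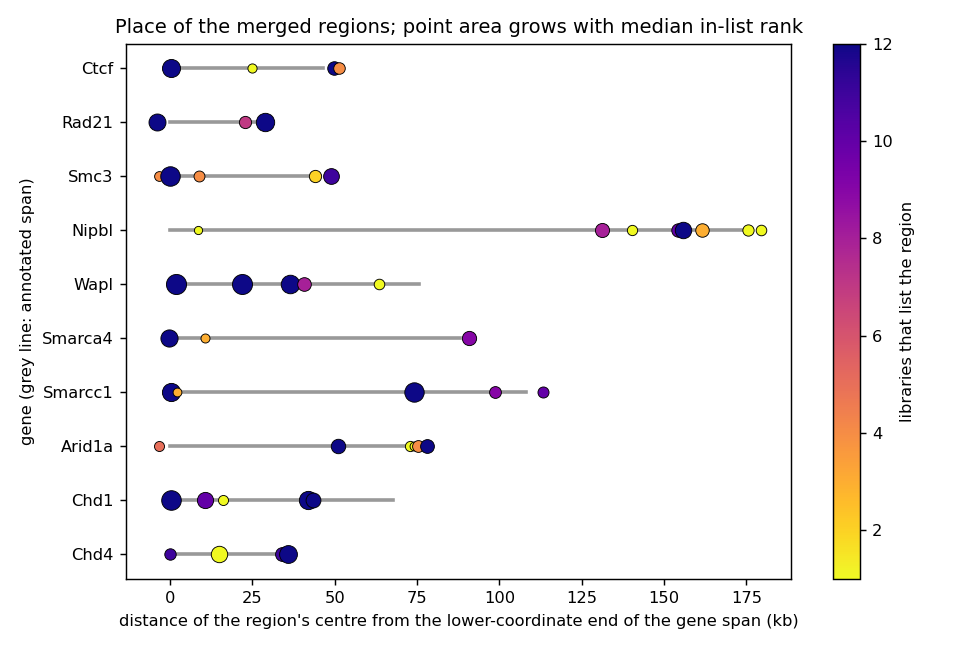
Place of the 48 merged regions along the 10 genes, as the distance in kb of each region's centre from the lower-coordinate end of the annotated span (grey line). Colour gives the number of libraries listing the region and point area grows with its median in-list rank, and of the 18 regions of all 12 libraries 6 lie across a span end, 9 inside a span and 3 outside.

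The regions of all 12 libraries had a higher median length and a higher median rank than those listed in part of the libraries, and single regions of both kinds overlapped in both measures. The strength of a region in a library is given as the authors' fold of its strongest peak, a ratio that sets the pileup at the summit against local background. Its in-list rank is the percent of the peaks of the same list with a lower fold. Since only peaks above the calling threshold are listed and lists differ in length, ranks describe each list, and the genotypes were not tested on them. The 18 regions had a median length of 1304 bp and median in-list ranks from 32.9% to 94.5%, and the 10 regions of a single library had a median length of 224 bp. A merged region can only grow with each library added. The single-library region of Chd4 had a rank of 57.0%, above several regions of all 12 libraries. The median over the 18 was 73.4%, and it was 73.9% over all 23285 regions of the genome listed in all 12. The 30 remaining regions had a median of 17.8%, and it was 19.8% over the 74604 regions listed in 1 to 11 libraries. In both classes the ranks at these genes were thus close to those of the genome.

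**Figure D2:**
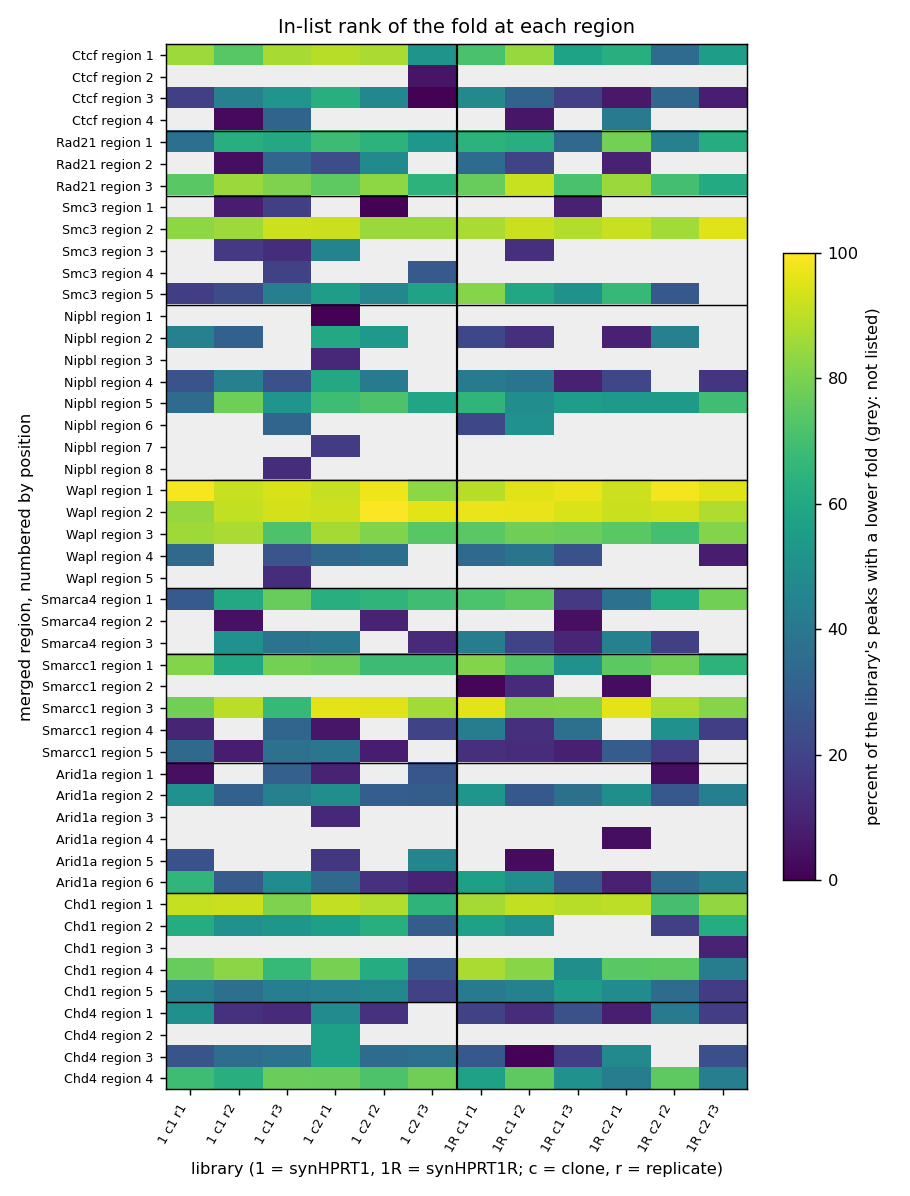
In-list rank of every merged region (rows, numbered by position within each gene) in every library (columns; 1 for synHPRT1, 1R for synHPRT1R, c for clone, r for replicate), as the percent of the library's peaks with a lower fold; grey cells are not listed. The first 2 regions of Wapl and region 2 of Smc3 stay bright across the 12 columns, and 7 of the 10 regions of a single library appear in the columns of the 2 longest lists.

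Ctcf, on chromosome 8 (gene ID 13018, span chr8:105636474-105682922), was open at its start, and its 3 other regions were a single one inside the gene and a pair past its far end. The start region, chr8:105635628-105637950, spanned 2323 bp and was listed in 12 of 12 libraries. Its lowest, median and highest fold were 5.61, 8.09 and 8.33 for synHPRT1 and 4.51, 5.63 and 7.86 for synHPRT1R. Its in-list rank ran from 51.7% to 89.1% with a median of 86.2% in synHPRT1, and from 34.9% to 84.5% with a median of 60.2% in synHPRT1R. The ranges of the genotypes overlapped, with 4 of the 6 synHPRT1 libraries above every synHPRT1R library and 1 below the synHPRT1R median. The region also covers the annotated start of the long noncoding RNA Gm5914, so signal from the 2 starts cannot be told apart. Inside the gene, chr8:105661334-105661561 was the only region, listed in synHPRT1 clone 2 replicate 3. The other regions lay past the far end of the gene. The first, chr8:105685620-105686865, overlapped Carmil2 and the noncoding RNA Gm33578 and was listed in 12 of 12 libraries. Its folds ran from 3.05 to 5.40 (median 4.85) in synHPRT1 and from 3.21 to 4.83 (median 4.11) in synHPRT1R, with overlapping ranges. The last, chr8:105687527-105688008, lay within Carmil2 and was listed in 4 libraries.

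The genes of the cohesin ring each had a region that every library listed. It ranked high at Smc3. The strongest at Rad21 had a median in-list rank of 76.0%, close to the 73.9% over all regions of the genome listed in all 12 libraries. Smc3, which encodes an ATPase arm of the ring (chromosome 19, gene ID 13006, span chr19:53600396-53645831), had its start region at chr19:53599659-53601024. The lowest, median and highest fold there were 7.71, 8.02 and 9.29 for synHPRT1 and 7.94, 8.44 and 9.89 for synHPRT1R. Its in-list rank stayed between 83.2% and 95.0% in all 12 libraries, and the ranges of the genotypes overlapped. Its summits lay upstream of the annotated start in every library, at offsets from -435 to -86 bases. A region 3020 bp past the far end, chr19:53648851-53649723, was listed in 11 libraries and missing from synHPRT1R clone 2 replicate 3. The other 3 regions of Smc3 were listed in 2 to 4 libraries.

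Rad21, the kleisin that closes the ring (chromosome 15, gene ID 19357, span chr15:51962604-51993538), had no peak closer than 1 kb to an annotated end of the gene in any library. Its strongest region, chr15:51990517-51992433, ended 1105 bp inside the upper end and overlapped the lower end of the annotated gene Gm52217, so within 2 kb of a gene end all 12 libraries had a peak. The fold there was 6.40, 7.06 and 7.74 (lowest, median and highest) in synHPRT1 and 5.87, 6.63 and 9.03 in synHPRT1R, and the ranges overlapped. The summits agreed closely, with 7 of 12 within 5 bp of their median. A region 3357 bp below the span, chr15:51957887-51959247, was also listed in 12 of 12 libraries, and overlapped no other annotated gene. Its folds ran from 4.63 to 5.98 (median 5.75) in synHPRT1 and from 4.42 to 6.92 (median 5.86) in synHPRT1R, which overlapped.

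The loader and the release factor of cohesin differed in how their regions were spread. Wapl, which opens the ring (chromosome 14, gene ID 218914, span chr14:34672379-34747983), had 3 regions in all 12 libraries, all inside its span. The start region, chr14:34673367-34674749, had folds of 8.02, 9.25 and 11.8 (lowest, median and highest) in synHPRT1 and 8.53, 10.0 and 11.2 in synHPRT1R. Its median in-list rank over the 12 libraries was 94.5%, the highest among the 48 regions, and the ranges overlapped. It also covers the start of the noncoding RNA 5830448L01Rik. The interior region chr14:34693673-34694596 lay 19745 bp from the annotated start and ranked nearly as high, at a median of 93.4% and between 84.3% and 99.3%. Its folds ran from 7.93 to 12.6 (median 9.37) in synHPRT1 and from 8.41 to 10.8 (median 9.34) in synHPRT1R. In synHPRT1 clone 2 replicate 2 its fold was 12.6, which placed it at rank 324 of 48954 peaks. The third, chr14:34708115-34709520, had a median rank of 77.8% and lay 34187 bp from the start.

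Nipbl, the loader (chromosome 15, gene ID 71175, span chr15:8289824-8465315), had a single region in all 12 libraries, chr15:8444611-8446562. It lay 18753 bp inside the upper end of the annotated span and overlapped the upper end of the annotated gene LOC102634078. Its fold was 4.46, 5.97 and 6.95 (lowest, median and highest) in synHPRT1 and 4.91, 5.42 and 6.38 in synHPRT1R. The values of synHPRT1R lay within the range of synHPRT1. The neighbouring chr15:8443678-8444245 was listed in 10 libraries, 5 of each genotype, and chr15:8420802-8421397 in 8, 4 of each. At the upper end of the span, chr15:8465163-8465423 was listed in synHPRT1 clone 2 replicate 1 only. Of the 8 regions, 4 were listed in a single library, 3 of them in synHPRT1 clone 2 replicate 1, the longest list. Without that library Nipbl had 5 regions, and in lists cut to equal length it had 4.

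Among the BAF genes the start regions were of middle strength or weak, and the strongest region lay deep inside Smarcc1. Smarca4, the ATPase (chromosome 9, gene ID 20586, span chr9:21616106-21704230), had its start region at chr9:21614885-21616790 in 12 of 12 libraries. Its fold was 4.30, 5.89 and 6.90 (lowest, median and highest) in synHPRT1 and 3.78, 6.11 and 7.30 in synHPRT1R, with overlapping ranges. The summits fell on both sides of the start, 8 of them at offsets from -166 to -53 bases and 4 from 170 to 277. No other region of Smarca4 was listed in all libraries. The region 2430 bp past the far end, chr9:21706660-21707207, was listed in 9, and an interior one, chr9:21626693-21626996, in 3.

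Smarcc1, the scaffold (chromosome 9, gene ID 20588, span chr9:110132024-110240178), was open at its start, chr9:110131721-110132715, with folds of 5.56, 6.67 and 7.59 in synHPRT1 and 5.22, 6.62 and 7.38 in synHPRT1R (lowest, median and highest). The interior region chr9:110205662-110206410, 73638 bp from the start, was stronger. Its folds were 6.02, 8.40 and 10.2 for synHPRT1 and 7.38, 7.95 and 10.2 for synHPRT1R, and its in-list rank had a median of 86.8%. Of its summits, 9 of 12 lay within 5 bp of their median, the highest count among the regions listed in 11 or 12 libraries. By the distance between the outermost summits, 106 bp, it came after the second of the adjacent Chd1 regions, with 97 bp. The small region chr9:110134005-110134415 was listed in 0 synHPRT1 and 3 synHPRT1R libraries, the largest split towards synHPRT1R among the 48 regions.

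Arid1a, the DNA-binding subunit (chromosome 4, gene ID 93760, span chr4:133679008-133756769, minus strand), had a weak start region. At its outer annotated start, chr4:133756566-133757777 was listed in 12 of 12 libraries with folds of 3.61, 4.02 and 6.19 in synHPRT1 and 3.43, 4.73 and 5.35 in synHPRT1R (lowest, median and highest). Its in-list rank was as low as 9.02% and reached 65.9%, and its summits were scattered upstream of the nearest start, at offsets from -930 to -47 bases. Near the inner annotated start, chr4:133754191-133754703 lay 206 bp away and was listed in 4 libraries. An interior region, chr4:133729654-133730452, was listed in all 12. Its folds ran from 4.32 to 5.29 (median 4.62) in synHPRT1 and from 4.13 to 5.16 (median 4.84) in synHPRT1R, and its median of 4.68 over all libraries was beside 4.42 for the start region. In lists of equal length 11 libraries kept a peak within 1 kb of an annotated start of Arid1a.

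The CHD genes lay far apart in strength, with Chd1 near the strong end of the range and Chd4 near the weak end. Chd1 (chromosome 17, gene ID 12648, span chr17:15704967-15772612) had a strong region across its lower end, chr17:15704135-15706127, with folds of 6.46, 8.55 and 8.99 (lowest, median and highest) in synHPRT1 and 6.43, 8.23 and 8.94 in synHPRT1R. The ranges were nearly the same. The region also covers the start of the noncoding RNA 5830433I10Rik. A pair of interior regions, chr17:15746307-15747212 and chr17:15748039-15748791, was listed in all 12 libraries. The folds of the first ran from 4.55 to 7.45 (median 6.45) in synHPRT1 and from 4.83 to 8.19 (median 6.69) in synHPRT1R, and those of the other had a median of 4.56 over all libraries. A further one, chr17:15715167-15715801, was listed in 6 synHPRT1 and 4 synHPRT1R libraries. Each synHPRT1 library listed 4 regions at Chd1.

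Chd4 (chromosome 6, gene ID 107932, span chr6:125095980-125130591) had the weakest start region of the 8 genes with a start region in at least 11 libraries. At chr6:125095753-125096386 it was listed in 5 synHPRT1 and 6 synHPRT1R libraries and missing from synHPRT1 clone 2 replicate 3, the shortest list. Its fold was 3.27, 3.62 and 5.26 (lowest, median and highest) in the synHPRT1 libraries that listed it and 3.38, 3.77 and 4.67 in synHPRT1R. The call depended on the threshold, as 5 of 12 libraries kept a start peak in lists of equal length, and 25% did when the cutoff on the −log10 q-value was raised to 5. The 11 summits lay at offsets from -80 to 56 bases from the nearer of 2 annotated starts, at 125095981 and 125096163. A summit between starts this close has a small offset in any case, and the outermost summits were 285 bp apart. The region of Chd4 that all 12 libraries listed, chr6:125131171-125132159, lay 580 bp past its far end at the annotated start of Nop2, a nucleolar methyltransferase gene. Its folds were 5.69, 6.56 and 7.51 for synHPRT1 and 4.56, 5.31 and 6.86 for synHPRT1R (lowest, median and highest). The last part of Chd4 held chr6:125129719-125130559, listed in 11 libraries.

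**Figure D3:**
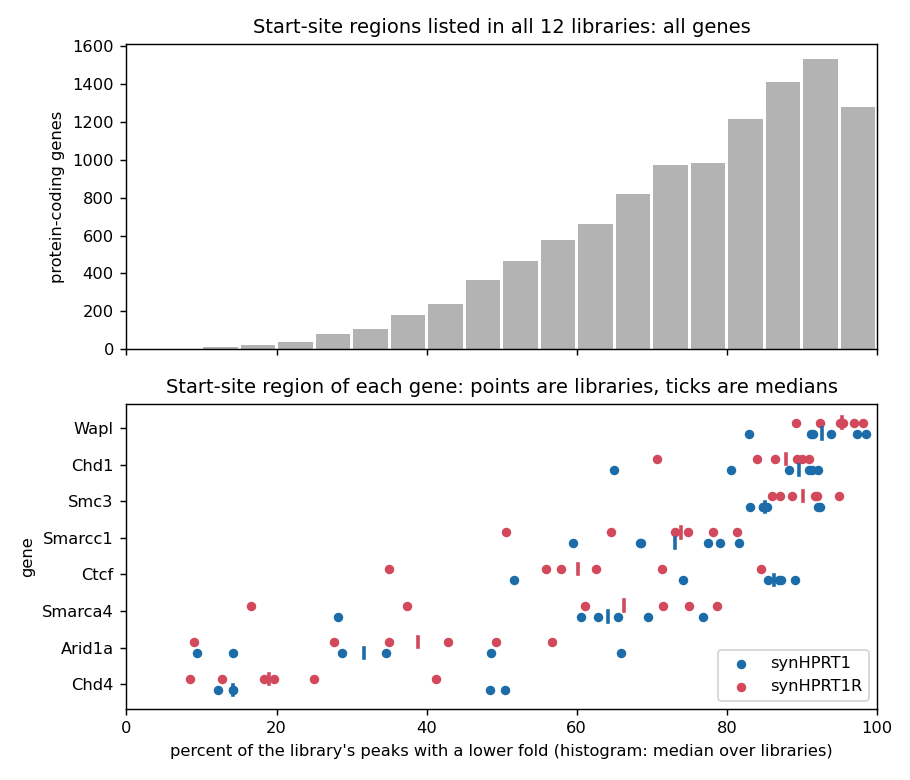
Upper panel, number of protein-coding genes by the median in-list rank of their start region, for the 10965 genes whose start region was listed in all 12 libraries. Lower panel, the same measure for 8 of the 10 genes, each point a library and each tick the median of a genotype. Wapl, Chd1 and Smc3 sit at the right and Arid1a and Chd4 at the left, below most genes of the upper panel. Chd4 was listed in 11 libraries and so is not among the genes of the upper panel.

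A peak within 1 kb of the gene start was listed in all 12 libraries at 7 of the 10 genes and at 49.6% of all protein-coding genes. Where the promoter table had no entry, either gene end was used. Over the 17492 genes with an entry the share was 50.6%. The exceptions were Chd4 with 11 libraries, Nipbl with 1 and Rad21 with 0. Nipbl, Rad21 and Chd1, which is among the 7, had no entry. For these genes the annotated gene ends may not be the starts that the cells use. Their counts, and the rank of Chd1 below, therefore describe the gene ends. At 2 kb instead of 1 kb all 12 libraries had a peak near an end of Rad21, and Nipbl stayed at 1. Among the 10965 genes with a start region in all libraries, 86.9% ranked below Wapl by median in-list rank, 71.4% below Chd1, 68.9% below Smc3, 39.5% below Smarcc1 and 37.2% below Ctcf. Smarca4 was above 24.1% of them and Arid1a above 2.36%. Chd4, listed in 11 libraries, is not one of the 10965, and 0.301% of them had a median below its 18.3%. Over all regions of the genome listed in 1 to 11 libraries the median rank was 19.8%. The median of the 10965 genes was a rank of 79.7% and a fold of 7.25. Wapl, Chd1 and Smc3 thus lay above that median and the other 5 below it.

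**Figure D4:**
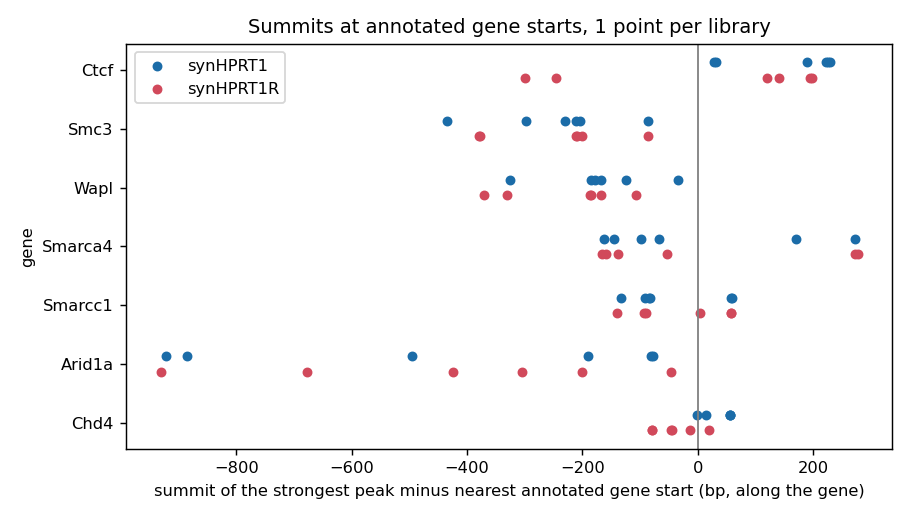
Distance in bp, along the gene, from the nearest annotated start to the summit of the strongest peak of the start region, with 1 point per library, for the 7 genes in the promoter table. Summits of Smc3, Wapl and Arid1a all lie upstream of the listed start, and those of Ctcf, Smarca4 and Smarcc1 on both sides. The annotated span of Wapl begins before its listed start, and its summits lie inside that span. Those of Chd4 lie between -80 and 56 of the nearer of its 2 close starts.

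The libraries differed in list length and in the number of these regions they listed. The 2 longest lists, of 63704 and 63563 peaks, held 37 and 36 of the 48 regions, and the shortest, of 38403 peaks, held 27. The order was not the same throughout, since lists of 44693 and 45731 peaks held 25 and 26. The relation was not tested. The number was 27, 30 and 37 (lowest, median and highest) in synHPRT1 and 25, 28.5 and 34 in synHPRT1R. When all lists were cut to 38403 peaks the numbers became 24, 26 and 28 of 38 regions in synHPRT1 and 21, 23.5 and 27 in synHPRT1R, and 15 regions were listed in all 12 libraries. The ranges of the genotypes overlapped in both settings.

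**Figure D5:**
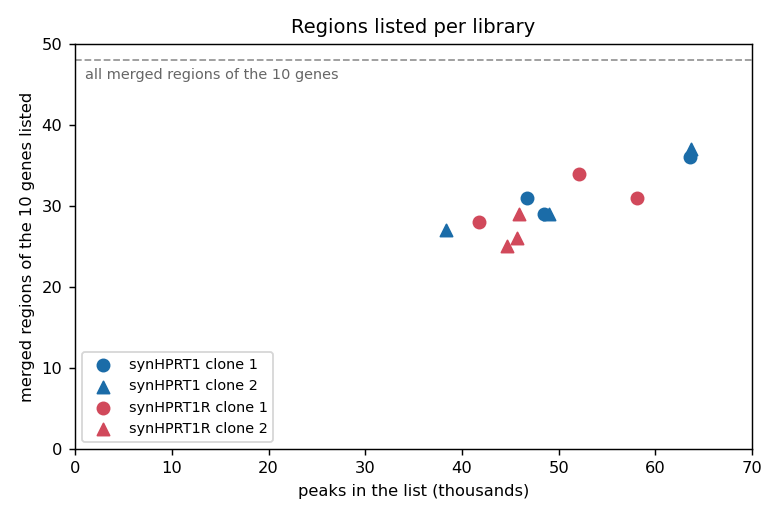
Number of the 48 merged regions listed in each library against the number of peaks in its list (in units of 1000), by genotype (colour) and clone (marker); both axes start at 0 and the dashed line marks all 48. The 2 longest lists held 36 and 37 regions, and the 3 libraries of synHPRT1R clone 2, with lists of 44693 to 45904 peaks, held 25 to 29.

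The comparison of synHPRT1 with synHPRT1R asked whether any of these loci was open more often in either genotype. None passed the test, which could not call single loci at this number of libraries. Among the 30 regions with a library lacking them, 0 passed Fisher's exact test (two-sided, adjusted after Benjamini and Hochberg over all 74604 such regions of the genome), and 0% of those 74604 passed. None of the 30 had an unadjusted p under 0.05, which 0.22% of the regions of the genome had, and the lowest Fisher's exact p was 0.182, at the Smarcc1 region listed in 3 synHPRT1R libraries. With 6 libraries against 6 the smallest p is 0.00216, and at least 3230 fully separated regions would be needed for an adjusted p under 0.05, so single regions could not be called by this test. Of the 30 regions, 18 were listed in more synHPRT1 libraries, 7 in more synHPRT1R libraries and 5 in as many of each. Over the genome 50.3% and 33.1% leaned to synHPRT1 and synHPRT1R, and with lists of equal length 41.7% leaned each way. At these genes the numbers with lists of equal length were 13, 6 and 4.

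By the number of regions listed per library, 0 of the 10 genes passed the two-sided exact permutation test over all splits of 6 against 6, adjusted over 17809 genes, of which 0% passed. At an unadjusted p under 0.05 it was 0 of the 10 genes, against 0.837% of all genes, with 0.713% higher in synHPRT1. At least 771 genes at the smallest p would be needed for an adjusted p under 0.05, so the adjusted test could not call a single gene either. The largest difference was at Smc3, with 3.33 ± 1.03 regions per synHPRT1 library and 2.17 ± 0.753 per synHPRT1R library (mean ± SD over 6 libraries each; p = 0.0996 by exact permutation, 1 after adjustment). In lists of equal length it was 2.33 ± 0.516 and 2.00 ± 0.632 (n = 6 each, exact permutation p = 0.636). Arid1a had 3.33 ± 1.21 and 2.5 ± 0.548 regions (n = 6 each, exact permutation p = 0.253), and Smarcc1, the only one of the 10 with fewer in synHPRT1 in the full lists, had 3.5 ± 0.548 and 4.17 ± 0.753 (n = 6 each, exact permutation p = 0.232). Smarca4 had a mean of 2.00 in both genotypes. By presence of a start peak, 0 of the 10 genes passed Fisher's exact test, where 0% of 4051 genes passed and 0.272% had an unadjusted p under 0.05. At least 176 fully separated genes would be needed for an adjusted p under 0.05 there. Only Chd4 and Nipbl varied between libraries in this measure, each with a Fisher's exact p of 1. Libraries of 1 clone share their source, and each genotype had 2 clones. Of the 48 regions, the clones of synHPRT1 listed means of 32.0 and 31.0 per library and those of synHPRT1R 31.0 and 26.7 (n = 3 each). The clones of synHPRT1R thus lay farther apart than the genotype means of 31.5 and 28.8.

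Other genes of the same complexes were mostly open at their starts, where 49.6% of all protein-coding genes had a peak in all 12 libraries. Of 12 cohesin regulators and partners 10 had a start peak in all 12 libraries, the exceptions being Hdac8, the SMC3 deacetylase, in 9, and Ctcfl, the germline relative of CTCF, in 0. Of 17 BAF and PBAF genes 12 did, and Pbrm1 and Ss18 were listed in 10, Dpf2 and the neuronal subunit Actl6b in 11 and Smarcd2 in 0. Of 17 NuRD and CHD genes 14 did, and Mta1 was listed in 6, Chd5 in 1 and Chd3 in 0. Of 8 genes of the ISWI, INO80, SRCAP and p400 complexes 7 did, the exception being Smarca1 in 3. For Ctcfl, Ss18 and Chd3 either gene end was used. The same holds for Stag2, Esco1, Esco2, Smarce1, Arid2, Chd2, Chd7, Mta3 and Hdac1, all counted with a start peak in all 12 libraries. The counts of these genes describe their gene ends. In each of the 4 lists 0 genes passed either test between the genotypes, adjusted or not. Over all genes tested, 0% passed after adjustment. An unadjusted p under 0.05 was reached by 0.837% in the permutation test and 0.272% in Fisher's exact test of start peaks. So 0 in lists this short says nothing particular about these genes.

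The label of the cells was checked on markers. Of 8 embryonic stem cell genes 7 had a start peak in all 12 libraries and Pou5f1 in 7. Of 8 fibroblast or feeder genes 0 did. Col1a1 and Twist2 had one in 11 libraries, Col1a2 in 8, Dcn in 3, Pdgfra in 2, Thy1 in 1 and Col3a1 and Lum in 0. Counting any region instead, 3 of these 8 genes and all 8 stem cell genes had one in all 12 libraries. Of 3 blood genes and the liver gene Alb 0 had a start peak in any library. Because the rule stops at 5 kb, regions close to that limit are given once. The farthest region inside it was that of Ctcf at 4605 bp, listed in 4 libraries with a median fold of 3.59. The nearest outside lay 5343 bp from Chd4, chr6:125089595-125090637, listed in 9 libraries with a median fold of 3.69, and 5509 bp from Arid1a, listed in 1.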

How the data were processed

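ATAC-seq, in which Tn5 transposase inserts adapters into accessible DNA, was read from 12 deposited narrowPeak lists, 1 per library. Per the submitters' processing notes, the tools were MACS2 2.1.0, Bowtie2 2.2.9, bcl2fastq 2.20, deepTools 3.5.0 and SAMtools 1.9, on mm10 (GRCm38). For read shifting, deduplication and filters, no setting is given by the sources used here. Peaks were called per library by the authors. The deposited score is 10 times the −log10 q-value, the deposited fold is a ratio of summit pileup to local background, and each summit also has a −log10 q-value (lowest 1.30) and a −log10 p-value, both as deposited. The lists hold no read counts, so depth is known only through list length, 38403 to 63704 peaks.

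Overlapping peaks (1 bp or more) on chromosomes 1 to 19, X and Y were merged over libraries. Genes and promoters came from RefSeq tables of GRCm38.p6. Exons and introns were not used here. Of the protein-coding genes, 4395 had no promoter entry, and either gene end within 1 kb then stood for the start. Presence was tested with Fisher's exact test and numbers of regions with exact permutation tests over all regions or genes, adjusted by Benjamini-Hochberg, at a threshold of 0.05 (Python 3.11.15, scipy 1.17.1). A trial of the tests on simulated data drew each library independently, with no clone structure and no difference in list length. It checked the computation only. Genes of like span are those for which the shorter span was over 0.8 times the longer. All 10 genes are named. For each, the start region and the strongest other region of all 12 libraries are given in full. The genes, lists and motifs were chosen with earlier results of these data known, and the wider YY1 letters after the sequences had been read. Groups came from the sample labels. Alternatives were lists of equal length, a −log10 q-value cutoff of 5, 50% overlap, other distances, a replicate block and leaving out each library.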

Additional observations from a re-analysis of the deposited data

Results flagged for a closer look

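Values of the 18 regions listed in all 12 libraries, and the number of regions per library, were checked within each genotype for a library far from the other 5, in 38 sets of 6 values. Chance alone flags about 1 in 20 such sets, and 3 were found. At the start region of Smarca4, the in-list rank in synHPRT1 clone 1 replicate 1 was 28.2%, against 60.5% to 76.9% in the other synHPRT1 libraries, and its fold was 4.30 against 5.41 to 6.90. At the second interior region of Chd1, chr17:15748039-15748791, synHPRT1 clone 2 replicate 3 had a rank of 19.2%, against 36.7% to 46.7% in the others. That library has the shortest list, of 38403 peaks, and its fold of 4.25 was close to the 4.38 to 4.95 of the others, so the gap was in the rank and not in the fold. At the region across the lower end of Chd1, synHPRT1R clone 2 replicate 2 had a rank of 70.7%, against 84.0% to 90.9% in the others, and its fold was 6.43 against 7.84 to 8.94. Ranks come from lists of different lengths. No explanation was tested for these values.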

How the results depend on the processing

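The number of genes and regions past an adjusted test between the genotypes was 0 under each alternative, which says nothing about stability, since with these libraries the adjusted tests could not call a single gene or region. At an unadjusted p under 0.05 by the exact permutation test, Chd4 appeared with the −log10 q-value cutoff at 5 (p = 0.0455, adjusted p = 1), and Smc3 without synHPRT1 clone 1 replicate 1 (p = 0.0325), without synHPRT1R clone 1 replicate 2 and without synHPRT1R clone 1 replicate 3 (p = 0.0455 each, adjusted p = 1). Where the peaks of a library had to cover 50% of the merged region, 4 regions instead of 18 counted as listed in all 12 libraries and 2 genes instead of 7 had such a start region. The number of regions was 35 to 64 over all alternatives, the highest with the span extended by 10 kb, and 43 to 50 when a library was left out. The number in all libraries was then 18 to 19, and that of genes with a start peak in all libraries 7 to 8. With a replicate block, permuting within replicate numbers, 0 member regions and 0 member genes passed, with the same limit. Same-numbered libraries of different clones did not deviate together (18 pairs, r from -0.057 to 0.0707), so the numbers give no pairing. Of 510 single-gene values under alternatives, 484 stayed within their spread or within 1.5 times. Since 12 of the 17 alternatives only left out 1 library, this total is no measure of stability. The difference between genotypes in regions per library took both signs at Ctcf (-0.5 to 0.5), Wapl (-0.333 to 0.333) and Smarca4 (-0.367 to 0.2). It also did at Chd4 (-0.0333 to 1) and Nipbl (-0.0333 to 0.967). At the other genes it kept its sign or reached 0. The lists hold no depth per site, so a region absent from a list was not detected there and is not shown to be closed.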
